A study of Schizosaccharomyces pombe with 37 samples.

Results

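The core environmental stress response of fission yeast (*Schizosaccharomyces pombe*) was followed through 9 genes, *hsp9*, *hsp16*, *ctt1*, *gpd1*, *tps1*, *ntp1*, *gpx1*, *pyp2* and *atf1*. They were taken by name, as genes known to depend on the kinase Sty1 and the transcription factor Atf1, out of 6996 annotated features. All 9 passed the filter on low values, a mean of at least 1 CPM (reads on a gene per 1000000 reads counted in its library), and were among the 5911 genes tested. Total RNA-seq covered 10 strains with 3 libraries each, 30 in all, from cells growing exponentially at 30°C. The question put to the data was which mutants carry raised stress gene RNA without any applied stress.

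All 10 strains shared the background h- leu1-32 ura4-D18 ade6-704 and the trp1+::ade6+ reporter, and none carried the *ade6-hp* hairpin that makes primary siRNAs. The *yth1-R59C* strain (a point mutation, unmarked) and the *pfs2-F115H* strain (a point mutation marked with kanMX) have altered subunits of the poly(A) polymerase module of the cleavage and polyadenylation factor (CPF), which cuts and polyadenylates pre-mRNA. By their labels, the *ssu72D*, *dis2D*, *ppn1D* and *swd22D* strains have a kanMX deletion of 1 subunit of the CPF phosphatase module, in which Ssu72 and Dis2 are the enzymes. The PAS-T4A, PAS-T4C and PAS-T4G strains carry the reporter as ade6+-TTAATT, ade6+-TTACTT and ade6+-TTAGTT, that is with 1 base changed in its polyadenylation signal (PAS), and have no mutation in CPF. The wt strain has the reporter alone. Each genotype was 1 strain. The labels do not say whether the replicates were separate cultures, so the p-values measure the spread between these libraries, which may be technical. The 9 comparisons with wt share the same wt libraries.

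When fission yeast is stressed by heat, salt, oxidants or starvation, the kinase Wis1 activates the mitogen-activated kinase Sty1, which enters the nucleus and acts with Atf1 and its partner Pcr1, a pair of bZIP proteins that bind DNA together. Their targets include chaperones, enzymes that make or break down protective solutes, enzymes that remove peroxides, and the regulators *atf1* and *pyp2* themselves. The tyrosine phosphatase Pyp2 in turn switches Sty1 off. Atf1 and Pcr1 are known to bind sequences with the core TGACGT.

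That core was searched, on both strands, in the window from 250 bases before to 50 bases after each annotated gene start in the RefSeq annotation of ASM294v3, to which the 9 genes were matched by identifier. It lay in 4 of the 9 windows (*gpd1*, *ntp1*, *ctt1* and *atf1*), and in 5.91% of the 5112 windows of protein-coding genes. The longer form ATGACGT, which contains TGACGT, lay in the same 4 windows and in 1.55% of all. The heat shock element GAANNTTC lay in 1 of the 9 windows, that of *hsp16*, and in 11.1% of all, and CCCCTC, the site of the glucose-regulated factor Rst2, in 0 of 9 and 2.11% of all. These are matches of letters, and binding was not measured. The 250 bases before the start of these 5 genes follow because they hold the matches, written 5′ to 3′ on the strand of the gene, with TGACGT (or its reverse complement) or GAANNTTC in capitals.
hsp16 (chrII:2660993-2661242, minus strand): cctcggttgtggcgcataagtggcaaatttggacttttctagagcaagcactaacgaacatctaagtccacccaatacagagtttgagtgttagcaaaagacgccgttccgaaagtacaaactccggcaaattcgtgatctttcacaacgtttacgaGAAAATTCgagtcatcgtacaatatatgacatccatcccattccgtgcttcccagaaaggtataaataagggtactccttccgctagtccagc
gpd1 (chrII:4035316-4035565, plus strand): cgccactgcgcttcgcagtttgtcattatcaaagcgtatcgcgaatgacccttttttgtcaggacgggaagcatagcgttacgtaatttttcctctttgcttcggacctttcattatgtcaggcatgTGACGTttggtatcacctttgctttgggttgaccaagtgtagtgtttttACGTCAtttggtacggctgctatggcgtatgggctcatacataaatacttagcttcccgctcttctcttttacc
ntp1 (chrII:206331-206580, plus strand): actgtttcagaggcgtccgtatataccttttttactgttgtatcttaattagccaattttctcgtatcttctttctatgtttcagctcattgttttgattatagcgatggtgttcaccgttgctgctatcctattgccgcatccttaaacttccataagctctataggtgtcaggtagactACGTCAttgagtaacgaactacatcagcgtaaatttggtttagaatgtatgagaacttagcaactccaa
ctt1 (chrIII:58834-59083, minus strand): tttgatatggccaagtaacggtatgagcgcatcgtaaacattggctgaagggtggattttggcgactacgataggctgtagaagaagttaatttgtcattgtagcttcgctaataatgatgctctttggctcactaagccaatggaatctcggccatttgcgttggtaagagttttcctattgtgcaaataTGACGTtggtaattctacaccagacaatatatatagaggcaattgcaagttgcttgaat
atf1 (chrII:1545967-1546216, plus strand): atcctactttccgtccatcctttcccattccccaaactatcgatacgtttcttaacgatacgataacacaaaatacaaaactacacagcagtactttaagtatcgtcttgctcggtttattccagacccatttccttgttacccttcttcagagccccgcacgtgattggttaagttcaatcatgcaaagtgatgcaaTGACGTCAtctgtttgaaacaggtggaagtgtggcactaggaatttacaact
In *atf1* the core and its reverse complement overlap in 1 palindrome between 52 and 45 bases before the start. In *gpd1* there were 2 separate matches, starting 123 and 74 bases before the start. The windows of *hsp9*, *tps1*, *gpx1* and *pyp2*, each searched over all 300 bases, held none of the 4 motifs. That of *tps1* differs in kind, since all its bases before the start lie in an exon of the neighbouring gene SPAC328.02.

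Between 1031965 and 6344396 reads were counted per library (median 1918663), and 3 reads corresponded to between 0.473 and 2.91 CPM. Counting was strand-specific and used uniquely mapping reads, and in ASM294v3 100% of the 50-base windows in the exons of each of the 9 genes occur once in the genome. At most 8.89% of exon bases (in *hsp9*) are shared with another gene on the same strand. The deleted gene had 0 reads in all libraries labelled *ssu72D*, *dis2D* and *swd22D*. In the libraries labelled *ppn1D* the *ppn1* gene had 76.3, 77.3 and 86.1 CPM, against 77.5, 79.3 and 62.8 CPM in wt. Its RNA was thus not lost, unlike what the label of a deletion would lead to, and the reason was not tested. Some libraries stood apart in the 9 genes. Their mean of log2(CPM + 1) lay 0.21 above the wt mean in wt replicate 1, against -0.14 and -0.07 in wt replicates 2 and 3. In PAS-T4A replicate 2 it lay 0.46 above the wt mean, against -0.16 and -0.11 in replicates 1 and 3. Mitochondrial genes took 8.01% to 15.04% of reads, and in *ssu72D* 10.9% to 12.3%, against 10.8% to 11.9% in wt.

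**Figure D1:**
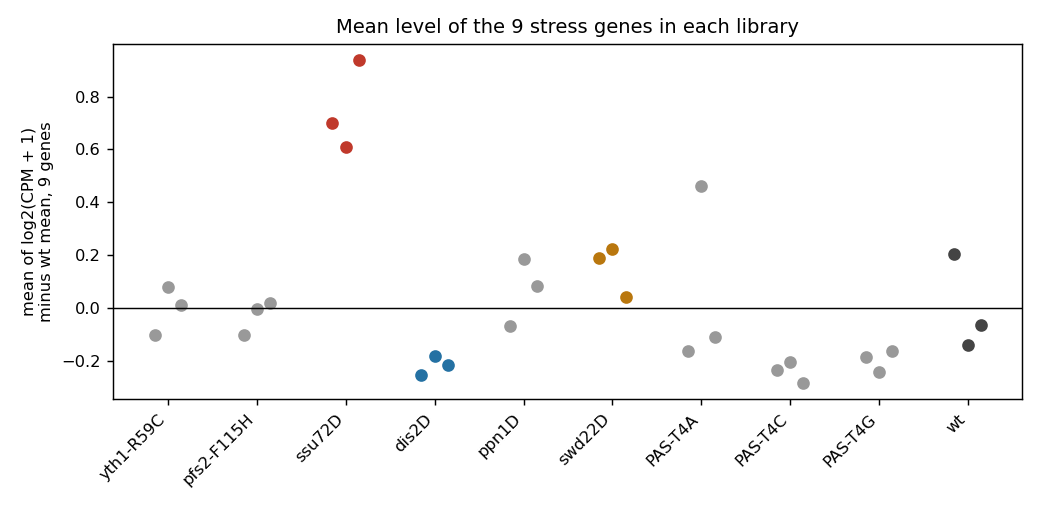
Mean level of the 9 genes in each library, as the mean of log2(CPM + 1) minus the mean over the 3 wt libraries (vertical axis), by strain with mutants to the left and wt at the right. Each point is 1 library. The *ssu72D* libraries lie at 0.70, 0.61 and 0.94, above the other 27, of which PAS-T4A replicate 2 at 0.46 is the highest, and the *dis2D* libraries lie between -0.26 and -0.18. The PAS-T4C libraries lie at -0.24, -0.205 and -0.28, and the PAS-T4G libraries at -0.19, -0.24 and -0.16.

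The levels of 8 of the 9 genes differed across the 10 strains (limma F test, adjusted p between 1.53e-10 for *gpd1* and 0.00149 for *atf1*). The exception was *pyp2* (adjusted p = 0.659). Of all genes tested, 60.1% passed this test. In wt, per kilobase of exon, *gpd1* had the highest level (301 ± 59.2 CPM per kb, SD, n = 3), followed by *tps1* (113 ± 15.7), *gpx1* (95.9 ± 9.61) and *hsp9* (94.8 ± 29.1). The chaperone *hsp16* (49.4 ± 11.8), *ntp1* (47.2 ± 5.40) and *ctt1* (41.1 ± 8.45) came next, and the regulators *atf1* (16.1 ± 2.30) and *pyp2* (5.42 ± 0.412) were lowest. The intervals of *tps1*, *gpx1* and *hsp9*, and those of *hsp16*, *ntp1* and *ctt1*, overlap within 1 SD.

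**Figure D2:**
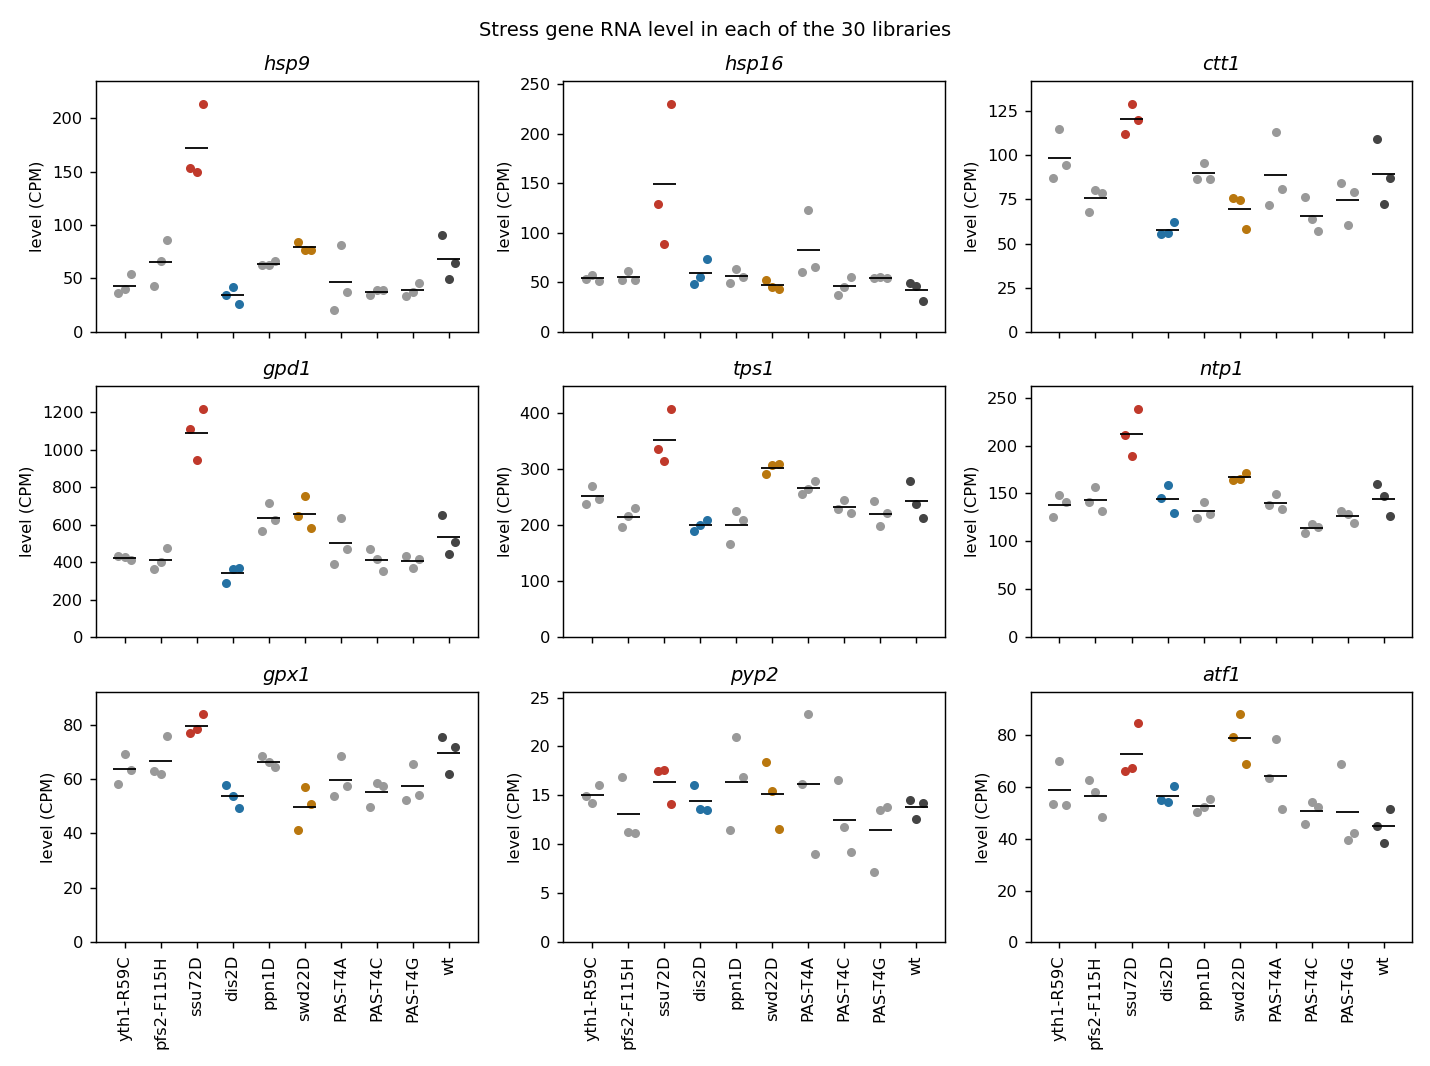
Level in CPM (vertical axes, from 0, scaled per gene) of the 9 stress genes in each of the 30 libraries, by strain with mutants to the left and wt at the right. Points are libraries and bars are means of 3. In 8 of the 9 panels all *ssu72D* points (red) lie above all wt points (dark grey), the exception being *pyp2*, and *dis2D* points (blue) lie below wt for *hsp9*, *gpd1*, *ctt1*, *tps1* and *gpx1*.

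In *ssu72D*, 7 of the 9 genes rose relative to wt (*hsp9*, *hsp16*, *gpd1*, *tps1*, *ntp1*, *ctt1* and *atf1*), 3 of them at least 2-fold (*hsp16*, *gpd1* and *hsp9*). Among all genes tested, 8.27% rose in *ssu72D*, and 2.96% rose at least 2-fold. The other 2 genes, *gpx1* and *pyp2*, did not pass. The median difference over the 9 genes was 0.55 on the log2 scale, against 0.02 over all genes tested. The 3 *ssu72D* libraries lay above all 3 wt libraries in 8 of the 9 genes, a separation that 22.7% of all genes showed in that direction.

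Of the chaperones, *hsp16* encodes a small heat shock protein that keeps unfolded proteins soluble. It had 130, 88.3 and 230 CPM in *ssu72D*, against 49.2, 46.8 and 30.7 CPM in wt. The groups did not overlap, and *ssu72D* replicate 3 was the highest and replicate 2 the lowest of its group. The log2 difference was 1.72 ± 0.23 (SE; limma on log2(CPM + 1), adjusted p = 1.31e-06). *hsp9* encodes a small stress protein related to Hsp12 of budding yeast. It had 153, 150 and 213 CPM in *ssu72D*, against 90.8, 49.3 and 64.6 CPM in wt. All *ssu72D* libraries exceeded wt replicate 1, the highest wt library, and the log2 difference was 1.35 ± 0.27 (limma adjusted p = 0.000542). Neither call was lost in any of the 16 alternatives tried for each of these genes.

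Of the enzymes of protective solutes, *gpd1* encodes the glycerol phosphate dehydrogenase that makes glycerol under osmotic stress. It had 1109, 944 and 1218 CPM in *ssu72D*, against 649.9, 444 and 508 CPM in wt. Even the lowest *ssu72D* library lay well above the highest wt library, and the log2 difference was 1.04 ± 0.14 (limma adjusted p = 1.37e-06). Trehalose is made by the synthase encoded by *tps1* and broken down by the neutral trehalase encoded by *ntp1*. *tps1* had 337, 315 and 408 CPM in *ssu72D*, against 279.9, 237 and 213 CPM in wt (log2 difference 0.54 ± 0.10, limma adjusted p = 0.000203). *ntp1* had 211, 189 and 238 CPM in *ssu72D*, against 159.5, 147 and 127 CPM in wt (0.55 ± 0.09, limma adjusted p = 4.69e-05). The RNAs of both enzymes of the trehalose cycle were thus higher, by similar amounts and with no overlap between the groups.

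Of the genes that remove peroxides, *ctt1* encodes catalase. It had 112, 129.1 and 120.3 CPM in *ssu72D*, against 109.1, 72.5 and 87.3 CPM in wt. Here *ssu72D* replicate 1 and wt replicate 1 nearly met. The log2 difference was 0.44 ± 0.15 (limma adjusted p = 0.0352), and the call was lost without *ssu72D* replicate 2 (adjusted p = 0.125), *ssu72D* replicate 3 (0.0931), wt replicate 2 (0.252) or wt replicate 3 (0.0973), as well as with no filter (0.0554) or median-of-ratios scaling (0.0611). *gpx1*, which encodes glutathione peroxidase, had 76.8, 78.4 and 83.8 CPM in *ssu72D*, against 75.2, 61.8 and 71.6 CPM in wt. The groups did not overlap, but the difference of 0.20 (95% interval -0.05 to 0.44) did not pass (limma adjusted p = 0.297).

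Of the regulators, *atf1* had 66.4, 67.5 and 84.7 CPM in *ssu72D*, against 45.1, 38.6 and 51.4 CPM in wt. The groups did not overlap, and the log2 difference was 0.68 ± 0.16 (limma adjusted p = 0.00277). The wt mean of *atf1* (45.1 ± 6.41 CPM, SD) was the lowest of the 10 strains. Against the libraries labelled *ppn1D*, *atf1* passed as higher in *ssu72D* (limma adjusted p = 0.0460). It did not pass against *yth1-R59C* (0.203), *pfs2-F115H* (0.110), *dis2D* (0.137) or *swd22D* (0.68). *pyp2* had 17.5, 17.6 and 14.1 CPM in *ssu72D*, against 14.5, 12.6 and 14.3 CPM in wt. These overlapped, and the difference of 0.23 had a 95% interval of -0.31 to 0.77 (limma adjusted p = 0.639). Over all 30 libraries *pyp2* lay between 7.22 and 23.3 CPM, from 13 to 130 reads.

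**Figure D3:**
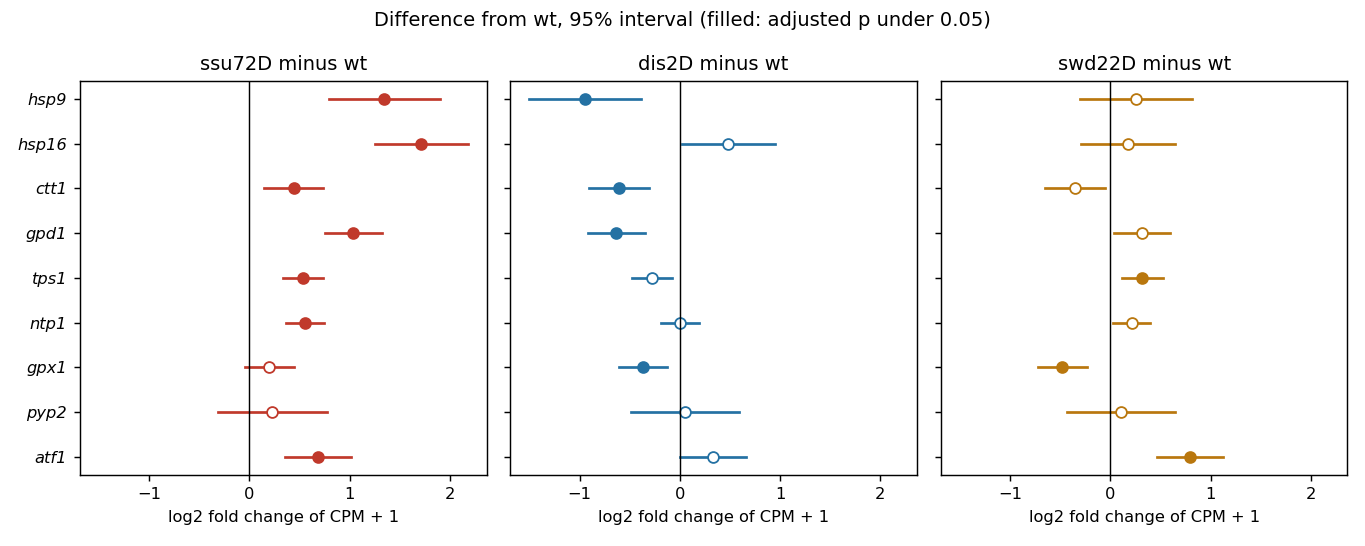
Log2 difference of CPM + 1 from wt (horizontal axis) for the 9 genes in *ssu72D*, *dis2D* and *swd22D*. Points are estimates, lines 95% intervals, and filled points passed at an adjusted p under 0.05. In *ssu72D* all 9 points lie to the right of 0 and 7 are filled, in *dis2D* 4 filled points lie to the left, and in *swd22D* *tps1* and *atf1* are filled to the right and *gpx1* to the left.

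In *dis2D*, 4 of the 9 genes fell relative to wt (*hsp9*, *gpd1*, *ctt1* and *gpx1*), and none of the other 5 passed. By comparison, 4.8% of all genes fell in *dis2D*, and 7.24% rose. The median over the 9 genes was -0.28, against 0.09 over all genes. A low median was not particular to *dis2D*. It was -0.32 in PAS-T4C (-0.04 over all genes) and -0.25 in PAS-T4G (0.04 over all genes), strains without a mutation in CPF. There *hsp9* differed from wt by -0.81 and -0.765 without passing (limma adjusted p = 0.0955 and 0.0779). *hsp9* had 34.7, 42.4 and 26.2 CPM in *dis2D*, against 90.8, 49.3 and 64.6 CPM in wt. *gpd1* had 291, 363 and 370.5 CPM in *dis2D*, below the 444 CPM of the lowest wt library. The groups did not overlap in either gene, nor in *tps1*, *ctt1* and *gpx1*, 5 of 9, and 10.2% of all genes were separated in that direction in *dis2D*. For these 2 genes the log2 differences were -0.95 ± 0.27 for *hsp9* (limma adjusted p = 0.0185) and -0.63 ± 0.14 for *gpd1* (0.00205).

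Catalase RNA (*ctt1*) was nearly even among the *dis2D* libraries, at 55.2, 56.0 and 62.1 CPM, against 109.1, 72.5 and 87.3 CPM in wt, with a log2 difference of -0.61 ± 0.15 (limma adjusted p = 0.00542). *gpx1* had 57.8, 53.7 and 49.4 CPM in *dis2D*, against 75.2, 61.8 and 71.6 CPM in wt, with a log2 difference of -0.37 ± 0.12 (limma adjusted p = 0.0398). Neither gene's groups overlapped. *hsp16* differed by 0.48 in the opposite direction, without passing (limma adjusted p = 0.169), and *atf1* by 0.33 (0.183). *ntp1* had a difference of 0.00 (95% interval -0.19 to 0.19). *tps1* differed by -0.28 without passing (limma adjusted p = 0.0649). It passed as lower in 5 of 16 alternatives, among them median-of-ratios scaling, edgeR and DESeq2. Without wt replicate 1, on average the highest wt library for these genes, only *gpd1* still passed in *dis2D* (1 of 9), and without *dis2D* replicate 3, 2 of 9 passed. With median-of-ratios scaling 252 of 698 called genes rose in *dis2D*, against 428 of 712 with CPM as deposited, so the balance of higher and lower genes in this strain depends on the scaling.

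In *swd22D*, *atf1* and *tps1* rose and *gpx1* fell, 3 of the 9 genes. Over all genes, 7.17% rose and 12.9% fell in *swd22D*. *atf1* had 79.6, 88.2 and 68.9 CPM in *swd22D*, against 45.1, 38.6 and 51.4 CPM in wt, the highest strain mean of *atf1* in the series (78.9 ± 9.68 CPM, SD, n = 3). The log2 difference was 0.80 ± 0.16 (limma adjusted p = 0.000498). *tps1* was close to even in *swd22D*, at 291, 307 and 309 CPM, with a log2 difference of 0.32 ± 0.10 (limma adjusted p = 0.0202). That call was lost without wt replicate 3 (adjusted p = 0.154), wt replicate 2 (0.0663), *swd22D* replicate 2 (0.0651) or *swd22D* replicate 3 (0.0581).

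*gpx1* had 41.4, 57.2 and 50.9 CPM in *swd22D*, all below wt, and the log2 difference was -0.48 ± 0.12 (limma adjusted p = 0.00383). *hsp9*, at 84.0, 76.6 and 77.0 CPM in *swd22D*, lay inside the wt range (log2 difference 0.25, limma adjusted p = 0.557). *hsp16* was also within 0.18 of wt, with a 95% interval of -0.29 to 0.64. The median over the 9 genes was 0.21, against -0.04 over all genes. With quantile normalization 576 of 1197 called genes rose in *swd22D*, against 424 of 1184 with CPM as deposited, and *gpd1* and *ntp1* also passed as higher.

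Single genes passed in PAS-T4A and PAS-T4C, strains in which only the reporter differs from wt. In PAS-T4A *hsp16* had 60.6, 123 and 65.1 CPM, against 49.2, 46.8 and 30.7 CPM in wt, a log2 difference of 0.91 ± 0.23 (limma adjusted p = 0.0104, where 3.28% of all genes rose). It did not pass without PAS-T4A replicate 2, the library that stood apart (difference 0.59, adjusted p = 0.125), or without wt replicate 3 (0.70, adjusted p = 0.101). Without PAS-T4A replicate 2, *hsp9* passed as lower (-1.23, adjusted p = 0.00147), and without wt replicate 3, *atf1* passed as higher (0.59, adjusted p = 0.0484). In PAS-T4C *ntp1* had 109, 118 and 115.4 CPM, against 159.5, 147 and 127 CPM in wt, a log2 difference of -0.33 ± 0.09 (limma adjusted p = 0.0357, where 2.59% of all genes fell). It passed in 8 of 16 alternatives, with an adjusted p between 0.0129 and 0.238, and failed without any 1 PAS-T4C replicate (0.0594 to 0.127), without wt replicate 1 (0.238) or wt replicate 2 (0.122), and under both other scalings. With median-of-ratios scaling 81 of 187 called genes rose in PAS-T4C, against 70 of 223 with CPM as deposited.

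In the other 4 mutants, 0 of the 9 genes passed by limma. At an unadjusted p under 0.05 there were 3 in *yth1-R59C*, 1 in *pfs2-F115H*, 1 in the libraries labelled *ppn1D* and 3 in PAS-T4G, a threshold that 16.6%, 31.9%, 10.4% and 22.6% of all genes passed in these strains, in the same order. edgeR called 2 genes in *pfs2-F115H*, *gpd1* (-0.47) and *tps1* (-0.29), and 0 in each of the other 3, and DESeq2 called 0 in all 4. Of all genes tested, 3.86% passed in *yth1-R59C*, 19% in *pfs2-F115H*, 2.44% in the libraries labelled *ppn1D* and 8.88% in PAS-T4G. *gpd1* had 435, 428 and 412 CPM in *yth1-R59C*, 363, 401 and 477 CPM in *pfs2-F115H* and 434, 366.5 and 415 CPM in PAS-T4G, all but 1 of these libraries below the wt range. It passed as lower in *pfs2-F115H* without *pfs2-F115H* replicate 3 (-0.47, adjusted p = 0.0238) or wt replicate 2 (-0.48, 0.0283). In PAS-T4G both *gpd1* (-0.51, adjusted p = 0.0383) and *hsp9* (-0.97, 0.0481) passed as lower without wt replicate 2.

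Among the strain means, *gpd1* ran from 341 ± 43.8 CPM in *dis2D* through 405 ± 34.7 in PAS-T4G, 413 ± 57.5 in PAS-T4C, 414 ± 57.9 in *pfs2-F115H*, 425 ± 11.7 in *yth1-R59C*, 501 ± 125 in PAS-T4A, 534 ± 105 in wt, 635 ± 75.9 in the libraries labelled *ppn1D* and 660 ± 85.6 in *swd22D* to 1090 ± 138 in *ssu72D* (SD, n = 3 each). *ssu72D* stood clear of its neighbour *swd22D* (log2 difference 0.72, limma adjusted p = 0.000525). The libraries of every other pair of neighbours in this order overlapped.

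The 6 strains labelled as CPF mutants, the libraries labelled *ppn1D* among them, were also compared with each other. Of 135 tests of the 9 genes in 15 pairs, 58 passed (43%), against 17.6% of the tests of all genes. The 5 pairs with *ssu72D* accounted for 31 of 45 tests (68.9%, against 18.2% over all genes), each of them higher in *ssu72D*. The other 10 pairs accounted for 27 of 90 (30%, against 17.3% over all genes and between 2.45% and 32.5% in a single pair). *ssu72D* was higher in 5 genes than *yth1-R59C*, a pair in which 17.2% of all genes differed in either direction. It was higher in 6 genes than *pfs2-F115H* (21.3% of all genes differed), in 7 than *dis2D* (17.1%), in 7 than the libraries labelled *ppn1D* (19.2%) and in 6 than *swd22D* (16.1%). These pairs and the comparison with wt use the same *ssu72D* libraries.

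Between the 2 phosphatase deletions, *ssu72D* against *dis2D*, *hsp9* averaged 172 ± 35.7 CPM in *ssu72D* and 34.4 ± 8.10 CPM in *dis2D* (SD, n = 3 each), a log2 difference of 2.30 ± 0.27 (limma adjusted p = 1.26e-07). *gpd1* differed by 1.67 ± 0.14 (3.96e-11), *hsp16* by 1.23 ± 0.23 (0.000169) and *ctt1* by 1.05 ± 0.15 (2.37e-06). *tps1* (0.81), *gpx1* (0.56) and *ntp1* (0.55) also passed, while *atf1* (0.35, adjusted p = 0.137) and *pyp2* (0.18, 0.704) did not. Against *swd22D*, *ssu72D* was higher in *hsp16* (1.54), *hsp9* (1.09), *ctt1* (0.79), *gpd1* (0.72), *gpx1* (0.68) and *ntp1* (0.34). For *atf1* the difference between *ssu72D* and *swd22D* was -0.11 (adjusted p = 0.68) and for *tps1* 0.21 (0.142).

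The pathway above these genes was described through a list of 19 genes, from the sensor kinases to Sty1 and the factors it acts on. In *ssu72D* 1 rose, the phosphatase gene *ptc1* (0.50), and 4 fell, the histidine kinase genes *mak1* and *mak3*, *sty1* and the response regulator gene *prr1* (median over the 19 -0.11), where 8.27% of all genes rose and 8.49% fell. Without *ssu72D* replicate 3 or wt replicate 2, or under quantile normalization, 1 rose and 2 fell. *sty1* itself had 159, 165.5 and 166 CPM in *ssu72D*, against 215, 216 and 209 CPM in wt, a log2 difference of -0.38 ± 0.08 (limma adjusted p = 0.000393). It also fell in *dis2D* (-0.43, adjusted p = 0.000148) and *swd22D* (-0.34, 0.00134). *wis1* differed from wt by -0.29 in *ssu72D* (adjusted p = 0.0702), -0.12 in *dis2D* (0.531) and -0.19 in *swd22D* (0.232) without passing. *pcr1* was within 0.07 of wt in each of these 3 strains (0.05, -0.01 and -0.07 in *ssu72D*, *dis2D* and *swd22D*). The largest differences in this list were in the libraries labelled *ppn1D*, where 2 of the 19 rose, both at least 2-fold, and 1.39% of all genes rose. *mak3* had 993, 940.5 and 944 CPM there, against 496, 474 and 437 CPM in wt (1.03 ± 0.06, limma adjusted p = 1.99e-14). *ptc1* had 109, 118 and 111 CPM in the libraries labelled *ppn1D*, against 50.7, 45.9 and 45.5 CPM in wt (1.23 ± 0.11, limma adjusted p = 8.01e-11). In neither gene did the groups overlap. Both lie near *ppn1* on chromosome III, *mak3* from base 1940315 and *ptc1* from base 2004536, with *ppn1* from base 1924680. Whether the rise came from that position or from the pathway was not tested. The phosphorylation of Sty1 was not measured.

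A second list held 13 other genes known to be induced by stress. In *ssu72D* 8 of them rose and the other 5 did not pass (median 0.66), where 8.27% of all genes rose. Of the 8, 5 rose at least 2-fold, as did 2.96% of all genes. These 5 were *cta3*, a cation-pumping ATPase, *gst2*, a glutathione transferase, *zym1*, a metallothionein, *hsp104* and *rsv2*. *hsp104* is a disaggregase that works with small heat shock proteins, and *rsv2* a zinc-finger transcription factor of the stress response. *cta3* had 22.4, 24.1 and 25.8 CPM in *ssu72D*, against 2.01, 1.58 and 2.42 CPM in wt (8 to 10 reads in each wt library), a log2 difference of 3.07 ± 0.41 (limma adjusted p = 1.14e-06). *gst2* had 447, 345 and 461 CPM in *ssu72D*, against 158, 123 and 132.5 CPM in wt (1.59 ± 0.14, limma adjusted p = 3.74e-10). *hsp104* had 349, 319.7 and 408 CPM in *ssu72D*, against 185, 186 and 140.3 CPM in wt (1.07 ± 0.11, limma adjusted p = 1.93e-08). The groups stood far apart in all 3. *zym1* passed narrowly, at 18.4 ± 10.1 CPM in *ssu72D* against 7.09 ± 1.46 CPM in wt (SD, limma adjusted p = 0.0488). With 1 library of either strain left out, 5 to 7 of the 13 rose in *ssu72D*, with 5 without wt replicate 3.

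In *dis2D* the same list was split, with 2 genes higher and 2 lower, where 7.24% of all genes rose and 4.8% fell. *cta3* rose there too, to 14.8, 21.7 and 12.7 CPM in *dis2D*, against 2.01, 1.58 and 2.42 CPM in wt (2.51, limma adjusted p = 4.40e-05), and *hsp104* rose by 0.36 (0.0360). *rds1* fell to 10.9, 19.8 and 18.7 CPM in *dis2D*, against 62.7, 42.7 and 85.6 CPM in wt (-1.88, limma adjusted p = 2.48e-06), and *fbp1*, the gluconeogenic fructose bisphosphatase that glucose represses, with a log2 difference of -1.12 (0.0330). In *swd22D*, 3 rose and 2 fell, where 7.17% of all genes rose and 12.9% fell. They were *cta3* (1.27, limma adjusted p = 0.0231), *hsp104* (0.78, 7.19e-06), *gst2* (0.60, 0.00213), *rds1* (-0.83, 0.0192) and *fbp1* (-1.26, 0.0098). Without *dis2D* replicate 1, *dis2D* replicate 3 or wt replicate 3, 2 of 13 passed in *dis2D*. Without *swd22D* replicate 3 or wt replicate 1, 3 passed in *swd22D*.

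**Figure D4:**
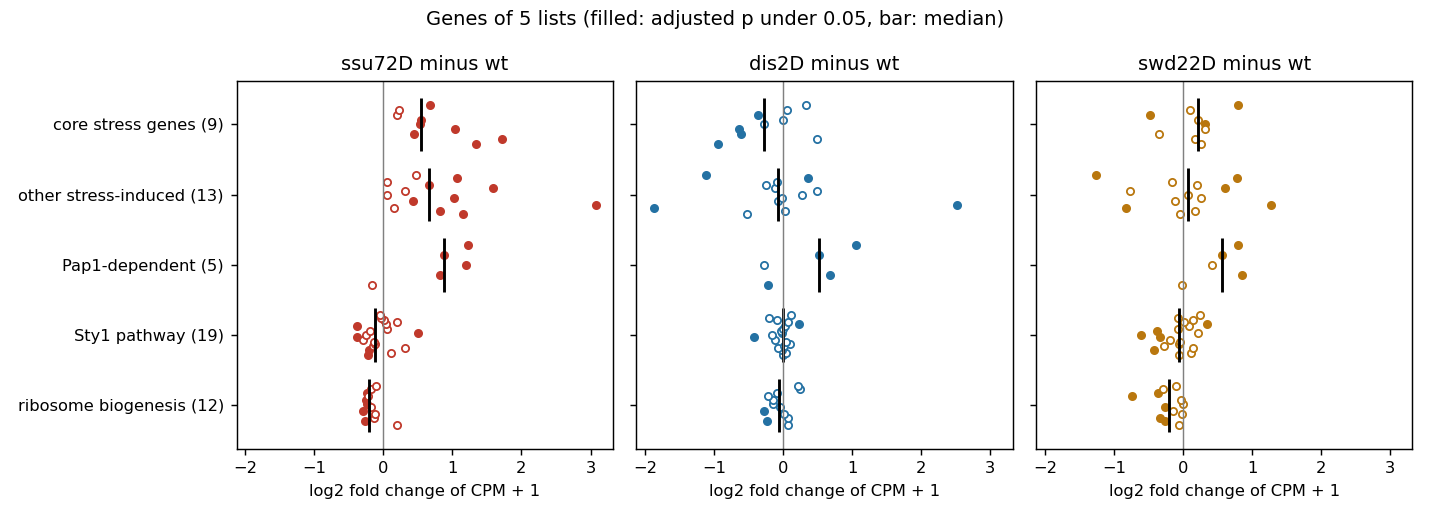
Log2 difference of CPM + 1 from wt (horizontal axis) for the genes of 5 lists in *ssu72D*, *dis2D* and *swd22D*. Each point is a gene, filled at an adjusted p under 0.05, and bars are list medians. In *ssu72D* the medians are 0.55 for the 9 core stress genes, 0.66 for the 13 other stress-induced genes and 0.87 for the 5 Pap1-dependent genes, against -0.11 for the Sty1 pathway and -0.20 for ribosome biogenesis.

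Pap1 is a second stress factor, which answers low levels of peroxide and drugs. Of 5 genes that depend on it, 4 rose in *ssu72D* (median 0.87), *obr1* by 1.19 (limma adjusted p = 2.18e-05), the drug transporter *hba2* by 1.23 (0.000839), the transporter *caf5* by 0.87 (0.000393) and the sulfiredoxin *srx1* by 0.83 (0.00424). The other gene, *trr1*, differed by -0.16 in *ssu72D* without passing (limma adjusted p = 0.114). Of all genes, 8.27% rose in *ssu72D*. *hba2* had 879, 563 and 1040 CPM in *ssu72D*, against 335, 352 and 334 CPM in wt. In *dis2D* 3 rose and 1 fell, *trr1* (-0.22, limma adjusted p = 0.0304), where 7.24% of all genes rose and 4.8% fell. There *hba2* had 459, 892 and 869.8 CPM (1.06, limma adjusted p = 0.00609). In *swd22D* 3 rose, where 7.17% of all genes rose. The counts in these 2 strains rest on few libraries, at 0 of 5 without *dis2D* replicate 3, 1 without wt replicate 2 or wt replicate 3 in *dis2D*, and 1 without *swd22D* replicate 2 or wt replicate 3 in *swd22D*.

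Genes for ribosome biogenesis are repressed when the stress response is on. Of 12 such genes, 5 fell in *ssu72D* (*nog1*, *gar2*, *rrp5*, *nop2* and *utp10*), by no more than 0.29 on the log2 scale, and the median was -0.20. Over all genes, 8.49% fell in *ssu72D*. Also 5 fell in *swd22D* (median -0.20, where 12.9% of all genes fell), with the 60S assembly factor *rlp7* the most changed (-0.73, limma adjusted p = 6.19e-06), and 2 fell in *dis2D* (median -0.06, where 4.8% of all genes fell). The *ssu72D* count was 3 without *ssu72D* replicate 3 or wt replicate 2, and 1 fell and 1 rose without wt replicate 3. Under quantile normalization it was 1. The *swd22D* count was 3 without wt replicate 2 or wt replicate 3, and 2 under quantile normalization. The *dis2D* count was 1 without *dis2D* replicate 2, *dis2D* replicate 3, wt replicate 2 or wt replicate 3, and 5 under median-of-ratios scaling.

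The pattern of the 9 genes over the 10 strains was compared with that of other genes. Over the 10 strain means, each gene's correlation with the mean of the other 8 was 0.91 for *gpd1*, 0.88 for *ntp1*, 0.86 for *hsp9*, 0.77 for *tps1*, 0.73 for *ctt1*, 0.70 for *hsp16*, 0.64 for *pyp2*, 0.60 for *gpx1* and 0.58 for *atf1*. Among 1261 other genes whose strain means span at least 2-fold, those most like the mean of the 9 were *snoR56* (r = 0.94), *rsv2* (0.94), SPCC663.08c (0.93), SPAPB1A11.06 (0.93) and SPCC191.01 (0.92). In wt, *snoR56* had 2.77 ± 0.54 CPM and SPAPB1A11.06 had 1.21 ± 0.50 CPM (SD), levels near that of 3 reads in the shallowest libraries. All points share the same libraries, and *ssu72D* is the extreme point, so these correlations are a description.

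The genes with a TGACGT match did not form the group with the largest differences in *ssu72D*. *gpd1* (1.04), *atf1* (0.68), *ntp1* (0.55) and *ctt1* (0.44) have the match, and *hsp16* (1.72), *hsp9* (1.35), *tps1* (0.54), *pyp2* (0.23) and *gpx1* (0.20) do not. Of the 13 other stress-induced genes, 4 had TGACGT in the same window (*ish1*, *rds1*, *rsv2* and *gst3*), and of the 19 Sty1 pathway genes 3.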

How the data were processed

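RNA was measured by total RNA-seq (TruSeq Stranded Total RNA, 50-base single-end reads) in 10 strains with 3 libraries each, grouped by the sample titles. Per the submitters' notes and the methods, the authors aligned reads with STAR (version 2.7.3a) to the ASM294v2 genome. They counted uniquely mapping reads per gene and strand with featureCounts on PomBase annotation, and left out reads that overlap several genes. The authors deposited the counts as CPM, reads per 1000000 counted, which sum to between 999741 and 999917 per library. In each library 100% of values were whole multiples of 1 read (tolerance 0.02), so whole reads were recovered for the count tests. No column was left out. The 7 small RNA samples were not analysed here.

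A linear model per gene was fitted to log2(CPM + 1) over all 10 strains, using limma (version 3.58.1) in R (version 4.3.3) with 20 residual degrees of freedom and trended empirical Bayes. Genes averaging 1 CPM or more were fitted, 5911 of 6996. P-values were Benjamini-Hochberg adjusted over all genes within each comparison. A gene passed when its adjusted p lay under 0.05, and changes of 2-fold or more are stated separately. Fold changes on this scale understate those of low genes. Intervals are 95%. Alternatives were pseudocounts of 0.1 and 4, no filter, a mean of at least 10 CPM, median-of-ratios scaling, quantile normalization, a replicate block, a fit over the 2 strains compared, edgeR (version 4.0.16) and DESeq2 (version 1.42.0) on recovered reads, an adjusted p under 0.01, at least a 2-fold change, and each replicate left out. edgeR called 1536 genes in *ssu72D* and 825 in *dis2D*, DESeq2 1210 and 655, and limma 991 and 712. Of the replicate pairs within strains, none agreed within sampling noise (chi-square per degree of freedom 1.40 to 24.1).

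The 9 genes and the lists were chosen with earlier results of these data known. All 9 are named. A list gene is named where it passed with at least a 2-fold change in a mutant in which 1 of the 9 passed, and *sty1*, *wis1* and *pcr1* always. *gst2*, *hsp104* and *rds1* in *swd22D*, *caf5*, *srx1*, *trr1*, *ptc1*, *mak1*, *mak3*, *prr1*, the ribosome biogenesis genes and the list genes with a motif were named after their values were seen. *hba2* is listed under its other name, *bfr1*. Identifiers matched 6850 of the 6996 features to RefSeq's ASM294v3, the source of exon lengths, sequences and coordinates, which are not those of the authors' build. Matched by identifier, all genes of the lists were tested.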

Additional observations from a re-analysis of the deposited data

How the results depend on the processing

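Of 1295 values of single stress genes under the alternatives, 1239 stayed on their side of the threshold, 28 newly passed, 28 no longer passed and 0 called values changed sign. The number of the 9 genes that passed in *ssu72D* was 7, 3 with the 2-fold minimum, and 6 to 7 with 1 library left out. It was 6 with no filter, median-of-ratios scaling or an adjusted p under 0.01, where *ctt1* failed. In *dis2D* it was 4, with 5 for edgeR and for DESeq2. It was 2 at an adjusted p under 0.01, 0 with the 2-fold minimum and 1 to 4 with 1 library left out. In *swd22D* it was 3, with 5 under quantile normalization, 0 with the 2-fold minimum and 2 to 4 with 1 library left out. In PAS-T4A it was 1, with 2 for a mean of at least 10 CPM, for edgeR and for DESeq2, 0 at an adjusted p under 0.01 or with the 2-fold minimum, and 1 to 2 with 1 library left out. In PAS-T4C it was 1, with 0 under median-of-ratios scaling, quantile normalization, an adjusted p under 0.01 or the 2-fold minimum, 2 with edgeR, and 0 to 1 with 1 library left out. The fit over the 2 strains compared gave 1 in *yth1-R59C*, 1 in *pfs2-F115H* and 2 in PAS-T4G, against 0 in each. *pfs2-F115H* had 1 under median-of-ratios scaling, 2 with edgeR, and 0 to 1 with 1 library left out, and PAS-T4G 0 to 2. The tests between strains labelled as CPF mutants that passed were 58, and 15 with the 2-fold minimum. The causes were not tested, apart from the stricter thresholds. Median-of-ratios scaling moved the median of all genes in *pfs2-F115H* to 0.00, against 0.12 with CPM as deposited. Over all genes, edgeR called 1536 in *ssu72D*, against 991 with limma, 388 in *yth1-R59C*, against 228, and 425 in PAS-T4C, against 223.

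The labels number the replicates. Correlations of each mutant library with the wt library of the same number lay between -0.17 and 0.20. Libraries of different numbers were not compared, so these values do not settle whether the numbers pair libraries. With a replicate block the counts were 7 in *ssu72D*, 4 in *dis2D*, 3 in *swd22D*, 1 in PAS-T4A, 1 in PAS-T4C and 0 in the other mutants, 8 across strains, and 56 between the strains labelled as CPF mutants. The alternatives for the gene lists were added after the data were seen.

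The precision is limited by 3 libraries per strain and, for *pyp2*, by few reads. Growth rate and culture density were not measured here, and a difference between cultures cannot be told apart from 1 between strains.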
